A study of Mus musculus with 5 samples.

Results

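Antioxidant defence genes were followed in sorted islet cells of the mouse through 10 genes chosen by name for their function: the superoxide dismutases Sod1 and Sod2, the peroxide-removing enzymes Cat, Gpx3, Prdx1, Prdx3 and Prdx5, the thiol enzymes Txnrd1 and Gclc, and the transcription factor gene Nfe2l2. Of these, 9 had a probe set annotated to them alone and were among the 19938 genes tested; Prdx5 was not analysed here. Each gene was read from the probe set with the highest mean signal. These genes and the wider list below were chosen with earlier results of these data known.

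The cells were pancreatic islet cells of untreated C57BL/6 mice aged 8 to 12 weeks, sex not determined, sorted by flow cytometry for presence or absence of Flattop, a planar cell polarity effector encoded by Cfap126. All animals were heterozygous at the Flattop locus (FVR/+), so both fractions carry the modified allele, and the labels do not describe the gates. RNA from pools of 4 to 6 mice was hybridised to 5 arrays, 3 of Flattop-positive and 2 of Flattop-negative cells. Nothing in the labels says whether positive and negative pools came from different animals, so p-values measure only the spread between these pools.

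Superoxide formed by respiration is turned into hydrogen peroxide by superoxide dismutases, and the peroxide is then removed by catalase, glutathione peroxidases and peroxiredoxins. Glutathione and thioredoxin supply the electrons and are themselves reduced at the expense of NADPH. NRF2, the product of Nfe2l2, is held by KEAP1 and degraded until oxidants or electrophiles release it, so that it is controlled largely at the protein level. Pancreatic β-cells are known for low catalase and low glutathione peroxidase activity compared with liver, and rely on the peroxiredoxin and thioredoxin system.

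The values are RMA log2 signals, on which 1 unit is a doubling. A probe set's signal depends on its own probes, so levels are compared between arrays and never between genes. The endocrine hormone genes Ins2, Iapp and Gcg were above 12 on each array, as is usual for islet cells. The arrays of the Flattop-negative fraction stood furthest apart of all pairs (r = 0.846 across genes), and Flattop-negative replicate 1 was low in δ and PP cell markers, while Flattop-negative replicate 2 was high in them and in immediate early genes. Immediate early and heat shock genes, 11 of 12 listed, had mean signals of 9.99 on Flattop-positive replicate 3 and 9.87 on Flattop-negative replicate 2, against 6.24 to 7.36 on the other arrays. Summed acinar, endothelial, macrophage and stellate markers were each highest on Flattop-negative replicate 2. Of the 6 endothelial markers, however, 5 lay at or below the floor on that array, and 6 on each of the others. Among the 10 macrophage markers Lyz2 stood out on it, at 9.41 against 3.36 to 4.58 elsewhere. By group means 9 of the 10 were lower in the Flattop-positive fraction, and C1qa was higher. Cfap126 itself was at 6.13 ± 0.10 (SD, n = 3) against 5.48 ± 0.05 (SD, n = 2). In such bulk samples, fewer cells of a type and less RNA per cell cannot be told apart. Olfactory receptor genes, silent in most tissues, gave a floor: on each array the 95th percentile of 1027 such genes. It was 4.29 to 4.45 on the Flattop-positive arrays and higher, at 4.75 and 4.86, on the Flattop-negative arrays.

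Prdx1 and Prdx3, the cytosolic and mitochondrial peroxiredoxins, were the members whose Flattop-positive arrays all lay above the Flattop-negative arrays. Prdx1 was 2.09-fold and Prdx3 1.80-fold higher in the Flattop-positive fraction. Nfe2l2 and Gclc were level across all arrays, and Gpx3 differed far more between the Flattop-negative pools than between the fractions. No member passed limma's adjusted p of 0.05 over all genes, and neither did any other gene (0 of 19938, 0.0%; 2760 at an unadjusted p under 0.05). Leaving out Flattop-negative replicate 2 gave 434 genes past it and no member, where the spread of the single Flattop-negative array was taken from the Flattop-positive ones.

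At the unadjusted threshold, 2 of 9 members were called, against 13.8% of all genes tested, and both lay higher, where 8.48% of all genes were called; none lay lower, where 5.37% were. That count was 4 without Flattop-negative replicate 2 and 1 without Flattop-positive replicate 1 or 3. Over all genes the unadjusted calls were 1690 higher and 1070 lower, and 2506 and 332 with arrays centred on their medians. The same 2 of 9 showed no overlap between fractions, against 34.7% of all genes in either direction and 13.7% with the Flattop-positive arrays higher, while none of the members had them lower, as 21.0% of all genes did. These shares grew with signal: of genes with a mean signal of 7 to 8, as for Prdx3, 29.9% had all Flattop-positive arrays higher, and of those at 9 to 10, as for Prdx1, 40.5%. The count of members is thus near the background and says nothing particular about them. The median difference over the 9 members was 0.42 log2 units, with 8 above 0. Over all genes it was -0.10, and over the 12495 genes whose mean lay above the floor it was 0.12. For genes with a mean signal of 7 to 8 it was 0.34, and for those at 8 to 9 it was 0.45.

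**Figure D1:**
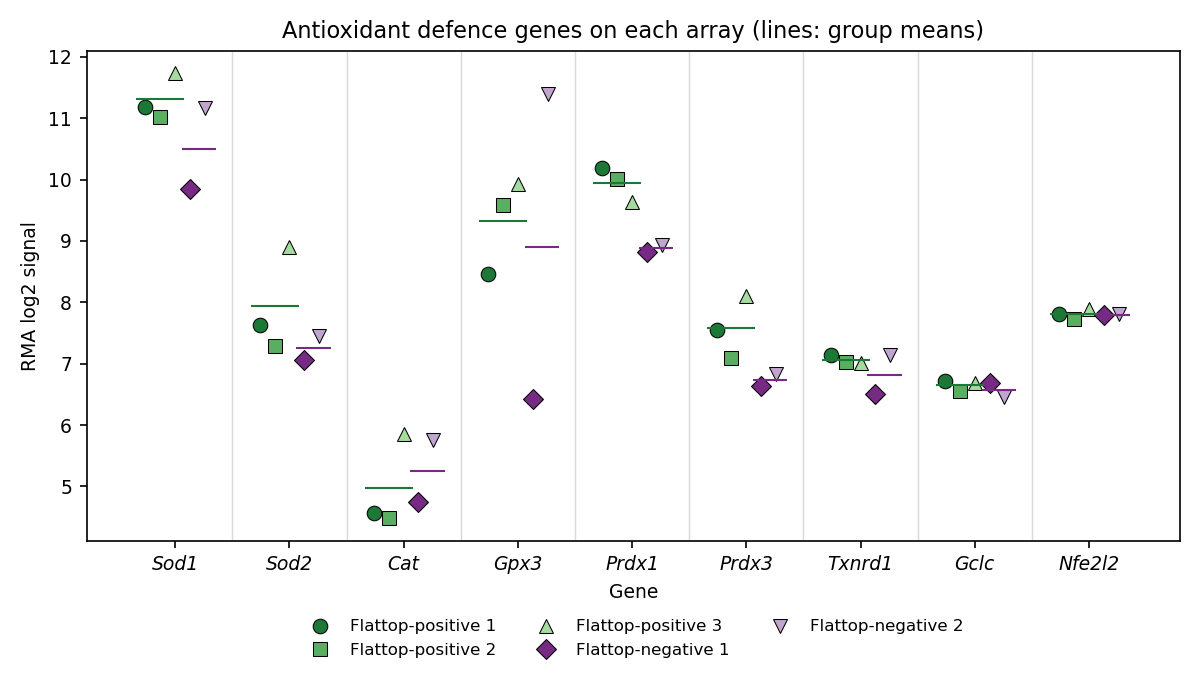
RMA log2 signal of the 9 antioxidant genes on each array; green symbols are the 3 Flattop-positive arrays, purple symbols the 2 Flattop-negative arrays, and lines the group means. The fractions separate for Prdx1 and Prdx3, Nfe2l2 stays between 7.72 and 7.89, and Gpx3 runs from 6.42 to 11.39 between the Flattop-negative arrays.

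Sod1, the cytosolic copper-zinc superoxide dismutase, had log2 signals of 11.18, 11.02 and 11.74 on Flattop-positive replicates 1 to 3 and of 9.85 and 11.16 on Flattop-negative replicates 1 and 2. Flattop-negative replicate 1 stood below the rest, and Flattop-negative replicate 2 lay within the Flattop-positive range, so the fractions overlapped. The difference of 0.81 ± 0.45 log2 units (SE) did not pass the test (adjusted p = 0.464; 95% interval -0.32 to 1.93). It was 0.15 without Flattop-negative replicate 1 and 1.46 without Flattop-negative replicate 2.

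Sod2, the manganese enzyme of the mitochondrial matrix, had signals of 7.62, 7.29 and 8.90 in the Flattop-positive and of 7.05 and 7.44 in the Flattop-negative arrays. Flattop-positive replicate 3 was the array apart, by more than 1 unit from every other. Its difference was 0.69 ± 0.51 (SE; adjusted p = 0.550) with all arrays and 0.21 without Flattop-positive replicate 3. That array was also 1 of the pair with high immediate early genes, but on the other of that pair, Flattop-negative replicate 2, Sod2 stood at 7.44, inside the range of the low arrays; the part of handling in the Sod2 values was not tested.

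Of the 2 other superoxide genes listed, Ccs, the chaperone that loads copper into SOD1, lay higher without overlap (5.79, 5.64 and 6.54 against 5.24 and 5.55), a difference of 0.59 ± 0.33 (SE; adjusted p = 0.461). Sod3, the extracellular enzyme, lay at or below the floor on 3 of 5 arrays.

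Catalase, the peroxisomal enzyme that splits hydrogen peroxide without glutathione or thioredoxin, gave Cat signals of 4.57, 4.48 and 5.85 in the Flattop-positive and of 4.75 and 5.76 in the Flattop-negative arrays. The fractions overlapped fully, and the high arrays were Flattop-positive replicate 3 and Flattop-negative replicate 2, 1 from each fraction. Cat was just above the floor on the remaining 3 arrays, where the floor stood at 4.29, 4.44 and 4.75. Its difference was -0.29 ± 0.53 (SE; adjusted p = 0.808), with a 95% interval from -1.62 to 1.04. The arrays high in Cat are those high in immediate early and heat shock genes, and their part in the Cat values was not tested. Without Flattop-negative replicate 2 the difference was 0.22.

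Gpx3, a secreted selenium-dependent glutathione peroxidase, had signals of 8.47, 9.59 and 9.92 in the Flattop-positive arrays, and of 6.42 and 11.39 in the Flattop-negative arrays. The Flattop-negative pools thus enclosed the whole Flattop-positive range, 31.5-fold apart. That gap of 4.98 log2 units was wider than that of 99.9% of all genes, whose median gap was 0.46. The difference between fractions was 0.42 ± 1.44 (SE; adjusted p = 0.902), with a 95% interval from 0.112-fold to 16.1-fold. Leaving out Flattop-negative replicate 1 turned it to -2.06 (adjusted p = 0.152), and leaving out Flattop-negative replicate 2 raised it to 2.91 (adjusted p = 0.0920), so its direction rested on which of these pools was read.

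The summed signals of δ and PP cell markers and of α-cell markers ranked the arrays as Gpx3 did. All 5 of 5 listed (Sst, Hhex, Rbp4, Ppy and Pyy) were measured, and their summed signal on the log2 scale was 13.93, 14.15 and 14.54 in the Flattop-positive arrays and 11.94 and 14.98 in the Flattop-negative arrays. The order of the 5 arrays was the same for that sum as for Gpx3. It was the same again for the sum of 4 of 7 listed α-cell markers (Gcg, Irx1, Irx2 and Ttr), none at or below the floor. Their log2 sums were 13.59 to 13.85 in the Flattop-positive arrays against 13.20 and 14.09. The low α-cell sum on Flattop-negative replicate 1 came from Ttr, at 9.69 there and 12.27 to 12.67 elsewhere. On that array Gcg, at 13.06, lay above Flattop-positive replicates 1 and 2 (12.85 and 12.81). Irx1, at 5.12, lay above Flattop-positive replicate 1 (4.92), so neither gene alone followed the order of Gpx3. Of the δ and PP markers Hhex alone came to or below the floor, on 3 arrays. Macrophage markers did not follow that order, with log2 sums of 8.08 or more in the Flattop-positive arrays against 7.94 and 10.07. The part of any of these cell types in the Gpx3 values was not tested.

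**Figure D2:**
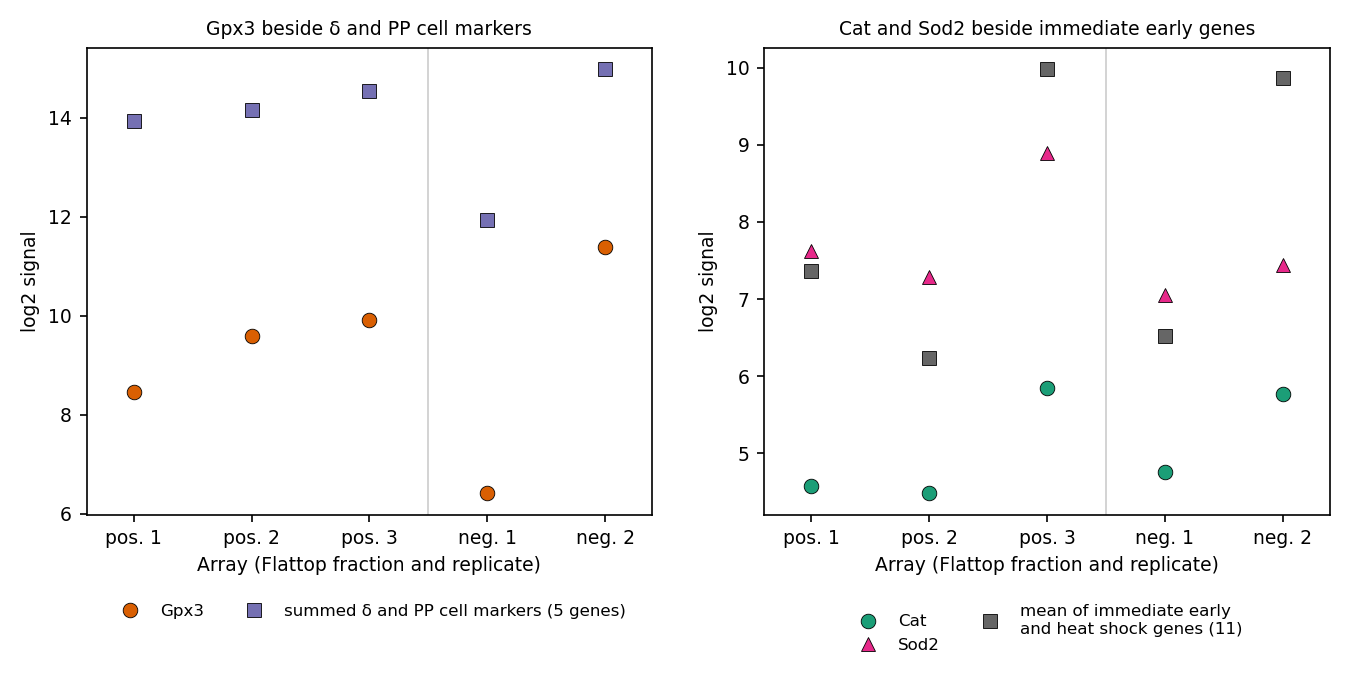
Log2 signal on each of the 5 arrays, with the Flattop-positive fraction on the left of each panel. In the left panel Gpx3 and the summed signal of 5 δ and PP cell markers are both lowest on Flattop-negative replicate 1 and highest on Flattop-negative replicate 2; in the right panel Cat is high on the same 2 arrays as the mean of 11 immediate early and heat shock genes, whereas Sod2 is high on Flattop-positive replicate 3 alone.

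The other glutathione peroxidases varied by pool as well. Gpx2, an epithelial cytosolic form, lay higher in the Flattop-positive fraction without overlap, at 8.55, 8.14 and 7.19 against 5.38 and 6.54. The level was 3.99-fold higher, with an unadjusted p of 0.0104 in limma (adjusted p = 0.254). Gpx1, the ubiquitous cytosolic form, was at 9.90, 9.13 and 10.38 against 6.76 and 9.77, and Gpx4, which reduces lipid peroxides in membranes, at 9.03, 8.74 and 9.08 against 6.79 and 8.81. For both, Flattop-negative replicate 1 was alone in being low, and without it the differences were 0.03 and 0.14. Gpx8, a form of the endoplasmic reticulum, lay lower in the Flattop-positive arrays by 0.55 ± 0.19 (unadjusted p = 0.0279), but under the floor on all 5 arrays. Gpx7 lay at or below the floor on 2 arrays and overlapped.

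Prdx1, an abundant peroxiredoxin of the cytosol and nucleus, had signals of 10.19, 10.01 and 9.63 on the Flattop-positive arrays and of 8.82 and 8.93 on the Flattop-negative arrays. Every Flattop-positive array was higher, and the Flattop-negative pools lay 0.11 apart, closer than for 86.9% of genes. The difference of 1.06 ± 0.24 log2 units (SE; 95% interval 0.47 to 1.65) had an unadjusted p of 0.00496 in limma and an adjusted p of 0.221. It stayed between 0.94 and 1.22 with each array left out.

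A second probe set with the same annotation to Prdx1 gave another picture of the Flattop-negative pools. It read 9.70, 9.48 and 9.35 in the Flattop-positive arrays, and 9.42 and 7.72 in the Flattop-negative arrays. On it Flattop-negative replicate 1 lay within the Flattop-positive range, and the low array was Flattop-negative replicate 2. The mean difference was similar, 0.94, but it overlapped between fractions (adjusted p = 0.455). The separation of the fractions in Prdx1 thus held for 1 of 2 probe sets, and which of them reads the Prdx1 transcript alone was not tested.

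Prdx3, the peroxiredoxin of the mitochondrial matrix, had signals of 7.55, 7.09 and 8.10 in the Flattop-positive arrays and of 6.63 and 6.83 in the Flattop-negative arrays. All Flattop-positive arrays were higher, the nearest pair being 0.26 apart. The difference was 0.85 ± 0.33 (SE; 95% interval 0.02 to 1.68), with an unadjusted p of 0.0463 and an adjusted p of 0.354. It was 0.59 without Flattop-positive replicate 3 and 1.09 without Flattop-positive replicate 2.

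After cyclic loess, which removes trends with signal between arrays, the Prdx1 and Prdx3 differences were 0.63 and 0.48, and on repeated quantile normalisation 0.65 and 0.56. Their direction was kept under all 13 other settings listed with the processing, and 0 of these gave an adjusted p under 0.05. The β-cell markers lay higher in the Flattop-positive fraction as well, 10 of 10. So did 40.8% of all genes and 83.5% of those with a mean signal of 9 to 10. Summed log2 signals of these markers were 14.53 to 14.80 against 14.15 and 14.29. Their mean log2 signals, in which each gene counts alike, lay further apart, at 10.23 to 10.38 against 9.24 and 9.29. Only Mafa reached the floor, on 1 Flattop-negative array, and Ins2 and Iapp overlapped between fractions. Among the Flattop-positive arrays the sum was highest on replicate 3, where Prdx3 was highest and Prdx1 lowest. The part of β-cells in the peroxiredoxin values was not tested.

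The promoters of these peroxiredoxin genes are shown because they are the members that separated the fractions. They come from RefSeq (GRCm38.p6) and hold the 250 bases before the transcript start, written 5′ to 3′ on the gene's strand. Capitals mark TGACNNNGC, the core of the antioxidant response element bound by NRF2 with small MAF proteins, searched on both strands. The Prdx1 window is chr4:116685349-116685598 on the plus strand and the Prdx3 window chr19:60874539-60874788 on the minus strand.
Prdx1: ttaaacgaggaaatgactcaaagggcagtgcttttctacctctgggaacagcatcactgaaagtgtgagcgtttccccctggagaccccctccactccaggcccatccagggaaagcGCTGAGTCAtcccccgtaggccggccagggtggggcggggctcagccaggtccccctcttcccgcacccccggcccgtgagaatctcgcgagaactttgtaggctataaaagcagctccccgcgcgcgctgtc
Prdx3: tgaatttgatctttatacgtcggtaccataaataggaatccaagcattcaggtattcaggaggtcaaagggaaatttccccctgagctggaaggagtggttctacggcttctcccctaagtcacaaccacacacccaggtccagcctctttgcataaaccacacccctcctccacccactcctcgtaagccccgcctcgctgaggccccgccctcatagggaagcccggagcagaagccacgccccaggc
The Prdx1 window holds 1 match, at bases -133 to -125 from the start and reading TGACTCAGC on the opposite strand, and the Prdx3 window holds none. The match overlaps a match to TGANTCA, the site of AP-1 factors such as FOS and JUN, which Prdx1 also holds at -237 to -231. TGACNNNGC occurred in 10.2% of all 32851 promoter windows of this length and TGANTCA in 6.75%. Of the 10 listed members, 9 had promoter entries, Prdx5 among them, whereas Gclc had none and was not searched. The 9 gave 11 windows, since Txnrd1 has 3 starts. Nfe2l2, Prdx1, Sod1 and 1 start of Txnrd1 held TGACNNNGC. In the wider list it was found in 8 of 70 windows (11.4%). A match is a stretch of letters and does not show binding.

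Of the remaining peroxiredoxin and thioredoxin genes, 1 of 8 tested (12.5%) was called at the unadjusted threshold, near the 13.8% of all genes. Txn2, the mitochondrial thioredoxin that reduces PRDX3, lay higher without overlap at 8.49, 8.24 and 7.99 against 6.87 and 7.23, a difference of 1.20 ± 0.24 (SE; adjusted p = 0.214). Txn1, the cytosolic thioredoxin, stood at 10.16, 10.64 and 9.59 against 9.58 and 9.81 and overlapped. Prdx4, the peroxiredoxin of the endoplasmic reticulum, was highest on Flattop-negative replicate 1, at 8.72 against 6.25 to 7.49 elsewhere, with a difference of -1.14 ± 0.64 (SE; adjusted p = 0.463) that was -0.26 without that array. Txnip, the thioredoxin-binding protein whose gene responds to glucose, had a difference of -0.02 ± 0.79 (SE) with signals of 7.90 and 10.25 in the Flattop-negative pools.

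Txnrd1, the cytosolic selenoenzyme that reduces thioredoxin, had signals of 7.14, 7.02 and 7.01 in the Flattop-positive arrays and of 6.51 and 7.14 in the Flattop-negative arrays. The 3 Flattop-positive arrays lay within 0.14 of each other, Flattop-negative replicate 2 was among them, and Flattop-negative replicate 1 was 0.50 below the lowest. The difference was 0.23 ± 0.25 (SE; adjusted p = 0.669; 95% interval -0.39 to 0.86), and -0.08 without Flattop-negative replicate 1. Its mitochondrial counterpart Txnrd2 had 0.42 ± 0.29 (SE; adjusted p = 0.523). Txnrd3, a form known from testis, had -0.45 ± 0.28 (SE; adjusted p = 0.490) and lay at or below the floor on 3 arrays.

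Gclc, the catalytic subunit of the enzyme that sets the pace of glutathione synthesis, had signals of 6.72, 6.56 and 6.68 in the Flattop-positive arrays and of 6.69 and 6.46 in the Flattop-negative arrays. Values of both fractions were interleaved within 0.26 log2 units, a narrower range than that of 97.1% of genes. The difference of 0.07 ± 0.19 (SE; adjusted p = 0.868) had a 95% interval from 0.757-fold to 1.46-fold, so a larger change either way lies outside it on the deposited scale.

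The partner subunit did not stay level in the same way. Gclm, the modifier subunit that makes the catalytic subunit more efficient, lay higher without overlap at a mean of 8.27 ± 0.35 (SD, n = 3) against 7.54 ± 0.06 (SD, n = 2; 0.73 ± 0.26, SE; unadjusted p = 0.0335, adjusted p = 0.324). Gsr, which reduces oxidised glutathione, lay higher at 7.70, 7.98 and 6.91 against 6.78 and 6.16 (1.06 ± 0.39, SE; adjusted p = 0.336). The glutaredoxins Glrx of the cytosol and Glrx5 of mitochondria, which acts in iron-sulfur cluster assembly, lay 2.21-fold and 2.09-fold higher (adjusted p = 0.214 each). In all, 4 of 9 genes of glutathione synthesis, reduction and glutaredoxins were called at the unadjusted threshold, all higher, where 13.8% of all genes were called and 22.6% of those with a mean signal of 7 to 8. Slc7a11, the cystine transporter subunit, was under the floor on all 5 arrays.

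Nfe2l2 had signals of 7.80, 7.72 and 7.89 in the Flattop-positive arrays and of 7.79 and 7.80 in the Flattop-negative arrays. Its range over all 5 arrays was 0.17 log2 units, narrower than that of 99.1% of genes, and the Flattop-negative pools lay 0.014 apart. The difference was 0.01 ± 0.18 (SE; adjusted p = 0.983), with a 95% interval from 0.737-fold to 1.38-fold. This near-zero value belongs to the deposited scale: it was -0.29 on repeated quantile normalisation, -0.41 after cyclic loess and 0.19 with arrays centred on their medians, none past the test. The median over all genes moved by 0.18 with centring and by 0.10 with loess and by 0.09 with repeated quantile normalisation.

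The Nfe2l2 promoter is given because NRF2 can act on its own gene. It is the window chr2:75704664-75704913 on the minus strand (RefSeq, GRCm38.p6), with TGACNNNGC again in capitals.
Nfe2l2: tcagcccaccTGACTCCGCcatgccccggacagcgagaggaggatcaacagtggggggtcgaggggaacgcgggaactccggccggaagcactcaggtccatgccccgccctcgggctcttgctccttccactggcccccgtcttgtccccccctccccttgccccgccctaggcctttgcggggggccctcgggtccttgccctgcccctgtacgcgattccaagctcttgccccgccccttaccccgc
The match reads TGACTCCGC and lies at -240 to -232 from the start.

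Around Nfe2l2, 1 of 8 other regulators (12.5%) was called at the unadjusted threshold, near the 13.8% of all genes. Nfe2l1, a related factor that acts on proteasome and antioxidant genes, lay higher without overlap at 9.08, 8.85 and 8.11 against 6.72 and 7.86 (1.39 ± 0.45, SE; unadjusted p = 0.0242, adjusted p = 0.303), and the difference was 0.82 without Flattop-negative replicate 1. Keap1, the adaptor that targets NRF2 for degradation, was higher without overlap too, at 6.37, 6.61 and 5.52 against 5.02 and 5.44 (0.94 ± 0.38, SE; adjusted p = 0.361). Bach1 and Mafg, which encode a repressor at NRF2 sites and a small MAF partner, had differences of -0.13 and -0.25 and overlapped. Sqstm1, the autophagy receptor p62 that binds KEAP1, read 7.34 on Flattop-negative replicate 1, and elsewhere 10.02 to 10.56.

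**Figure D3:**
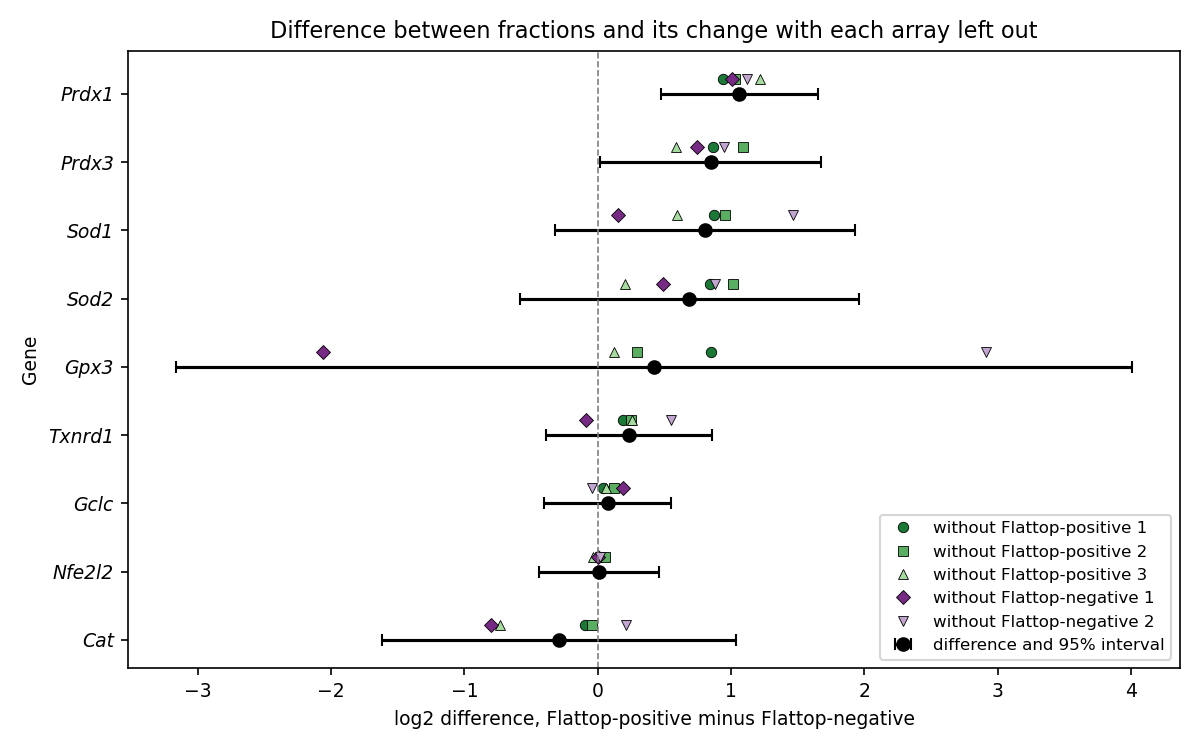
Log2 difference of each member between the fractions (black, with its 95% interval) and the same difference with each array left out in turn (coloured symbols above). Prdx1 stays between 0.94 and 1.22, Nfe2l2 between -0.03 and 0.05, and Gpx3 moves from -2.06 to 2.91.

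The wider antioxidant list held 58 genes, of which 56 were tested and Prdx6 and G6pdx were not analysed here. In it 41 genes lay higher and 15 lower in the Flattop-positive fraction, with a median difference of 0.52. At the unadjusted threshold 15 were called higher and 1 lower (28.6% in all, against 13.8% of all genes tested and 16.9% of those above the floor), and 0 passed the adjusted threshold. With all Flattop-positive arrays higher there were 19 (33.9%, against 13.7% of all genes and 21.4% of those above the floor). Over all genes both shares rose with signal between 5 and 9. Of genes with a mean signal of 5 to 6, 10.7% were called and 13.7% had all Flattop-positive arrays higher. These shares were 17.9% and 27.2% at 6 to 7, 22.6% and 29.9% at 7 to 8, and 26.4% and 36.7% at 8 to 9. The list's shares were near those at 8 to 9 and above those at 5 to 7. Its genes spread over low and high signals, 6 of 56 with a mean below the floor. A share matched to each gene's signal was not computed. The list was also chosen with earlier results of these data known, so its shares and those of its groups cannot test for an excess. The count called was 10 without Flattop-positive replicate 1 and 10 without replicate 2, and 23 without Flattop-negative replicate 2.

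Genes listed for NADPH supply, the source of reducing power for both thiol systems, had a median difference of 1.48 log2 units over 7 tested. That of all genes was -0.10, and that of genes with a mean signal of 6 to 7 was 0.30. The group holds Taldo1 and Tkt, which do not themselves make NADPH, and its median is the Taldo1 value. G6pdx, also of this group, was not analysed. Of the 7 tested, 4 were called at the unadjusted threshold (13.8% of all genes), and the same 4 had all Flattop-positive arrays higher (13.7% of all genes). These shares were 17.9% and 27.2% for genes with a mean signal of 6 to 7, as for Taldo1 and Tkt. At 8 to 9, as for Idh2, they were 26.4% and 36.7%. Taldo1 and Tkt, transaldolase and transketolase of the pentose phosphate pathway, were at 7.15, 6.73 and 6.93 against 5.42 and 5.49, and at 7.29, 7.17 and 7.07 against 5.20 and 6.06. Pgd, which makes NADPH in that pathway, was at 6.51, 6.31 and 6.82 against 5.09 and 5.13, a difference of 1.44 ± 0.22 (SE; unadjusted p = 0.000910, adjusted p = 0.198). Taldo1 differed by 1.48 ± 0.21 (SE; adjusted p = 0.198). With each array left out the Taldo1 difference lay between 1.37 and 1.58.

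Idh2, the mitochondrial isocitrate dehydrogenase that makes NADPH, lay 3.72-fold higher (9.18, 9.60 and 8.89 against 6.96 and 7.69; adjusted p = 0.199). Its cytosolic counterpart Idh1 overlapped, at 8.35, 8.26 and 6.48 against 7.33 and 5.04. Nnt, the mitochondrial transhydrogenase, read 7.16 on Flattop-positive replicate 3, with 5.59 to 5.76 elsewhere, and Me1, malic enzyme, had a difference of -0.13 ± 0.40 (SE).

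Among 8 glutathione transferase genes, 3 were called at the unadjusted threshold, all higher (8.48% of all genes). In either direction 10.7% of genes were called at a mean signal of 5 to 6, as for Gstk1. That share was 17.9% at 6 to 7, as for Mgst3, and 26.4% at 8 to 9, as for Gstm1. Of the 8 genes, 3 had a mean below the floor. Mgst3, a membrane-bound form, lay 3.81-fold higher (7.76, 7.59 and 7.23 against 5.98 and 5.21; adjusted p = 0.199). Gstk1, a form of mitochondria and peroxisomes, read 5.60, 5.83 and 5.56 against 4.34 and 4.46 (adjusted p = 0.198). Both its Flattop-negative values lay below the floor, and set against the floor itself it was at least 1.82-fold higher. Gstm1 had 1.11 ± 0.38 (SE; unadjusted p = 0.0289, adjusted p = 0.315), and 0.50 without Flattop-negative replicate 1. Hmox2, the constitutive haem oxygenase, was called as well (0.66 ± 0.23, SE; unadjusted p = 0.0291, adjusted p = 0.315), whereas the inducible Hmox1 overlapped, at 6.13 and 8.65 in the Flattop-negative pools against 6.92 to 8.32.

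**Figure D4:**
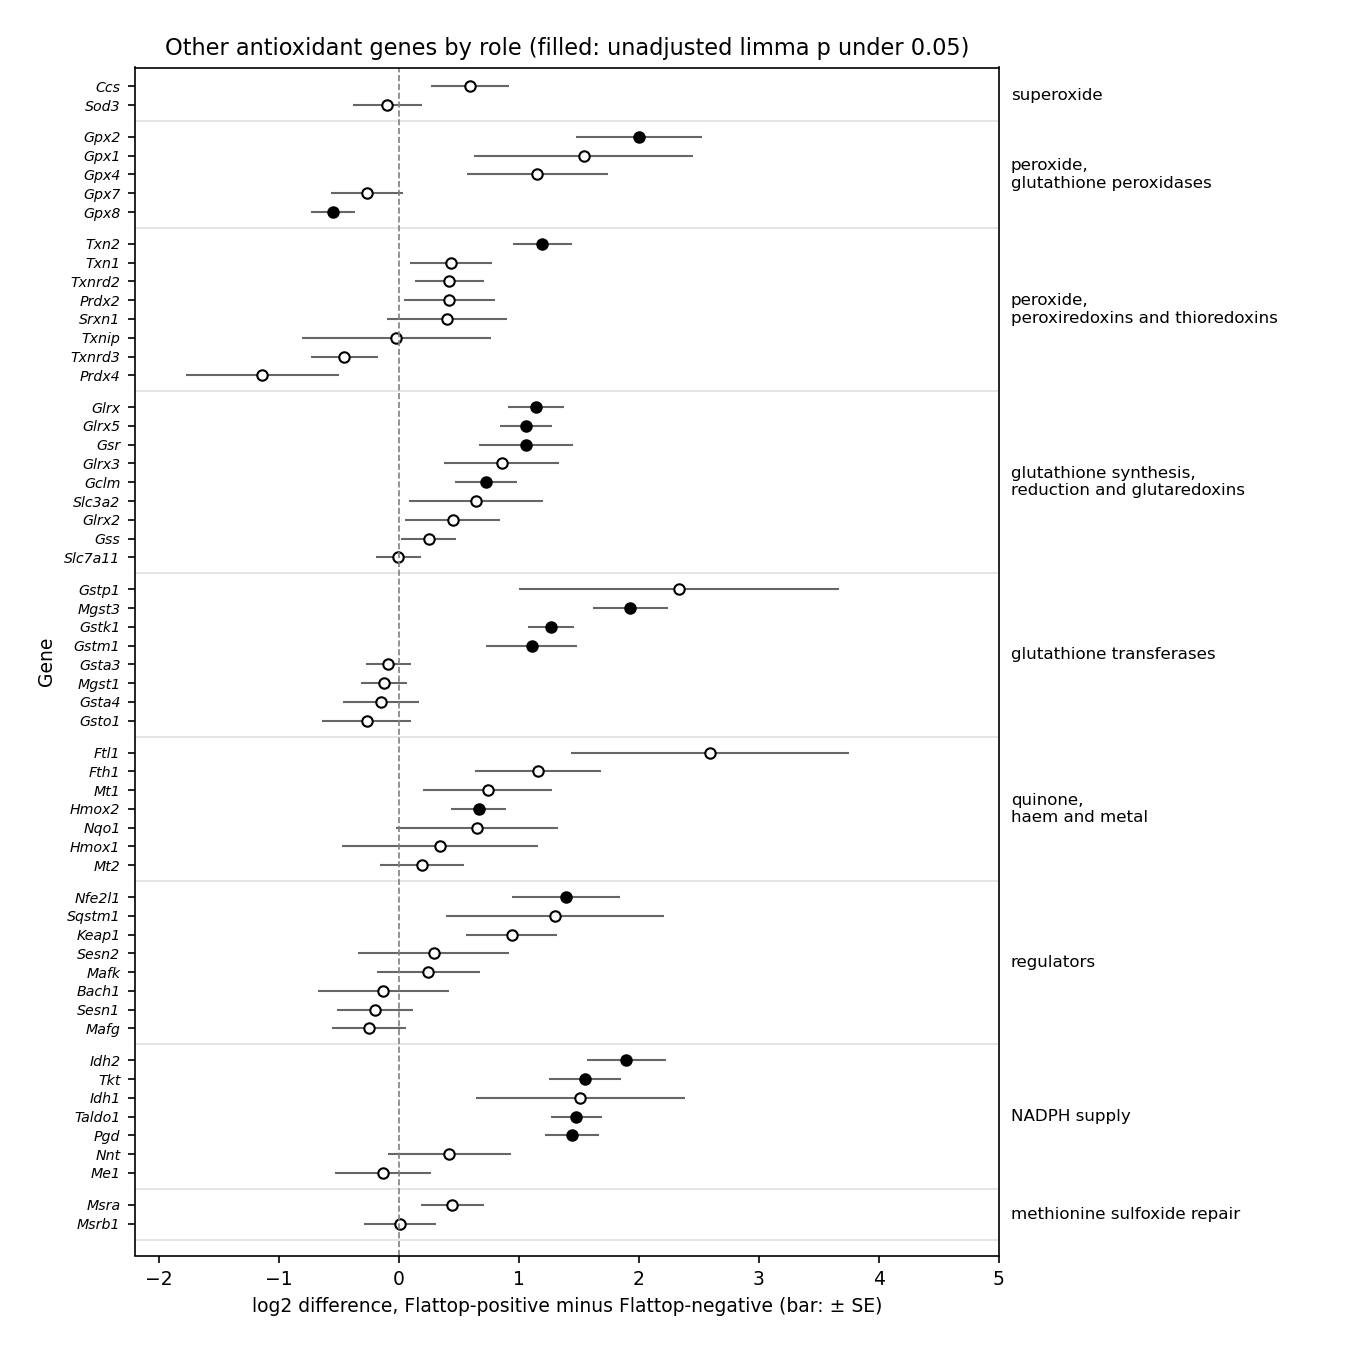
Log2 difference between the fractions (point) and its SE (bar) for the 56 other antioxidant genes tested, grouped by role; filled points have an unadjusted limma p under 0.05. All 4 filled genes of the NADPH supply group lie above 1.4, Gpx8 is the filled gene below 0, and Ftl1 and Gstp1 have wide bars.

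Flattop-negative replicate 1 was low in a set of abundant protective transcripts. The ferritin light chain gene Ftl1 read 7.01 there and 11.15 to 11.95 on the other arrays, and the heavy chain gene Fth1 lay at least 1.80 lower there than on any other array. Gstp1, the pi class transferase, read 5.25 against 9.85 to 10.15. Together with Gpx1, Gpx4 and Sqstm1 these made 6 of 56 listed genes (10.7%) and, with Gpx3, 1 of 9 members that lay more than 1.5 log2 units below every other array on that pool, a gap chosen after the values were seen. Over all genes the share was 1.38%, and 2.20% of those above the floor, neither matched to signal. Genes outside the list were low on that array too. Sst read 8.08 there and 12.32 to 13.19 elsewhere, and Ppy 8.98 there and 12.44 to 13.63 elsewhere. Gcg and Iapp, at 13.1 and 12.7, were not lowest there. Without that array the differences of Ftl1, Fth1 and Gstp1 were 0.52, 0.26 and -0.07, against 2.59, 1.16 and 2.33 with it. Of the members, 6 of 9 were lowest on that array, against 24.2% of all genes and 33.9% of those above the floor. That share was 35.4% for genes with a mean signal of 7 to 8 and 53.8% for those at 10 to 14.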

How the data were processed

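The genes and lists were chosen with earlier results of these data known. Per the submitters' processing notes, the authors ran RMA (Affymetrix Expression Console 1.3.0.187), so the deposited table holds a background-corrected, between-array normalised log2 signal for each probe set. The sources used here do not give a genome build, so probe sets have no printed coordinates. Among 35556 probe sets, the platform annotation listed 1 gene symbol for 21789, several for 1621 and none for 12146. Taking the highest mean signal per gene gave 19938 genes.

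Fractions were compared in limma 3.58.1 (R 4.3.3) with group as the only term, two-sided, and Benjamini-Hochberg adjustment over all genes; 95% intervals come from the moderated fit. The recovery of changed genes by this fit, not its intervals, was tested on simulated data. With 3 and 2 arrays, which limit the precision, a one-sided exact permutation p is at least 0.1. All 10 members are named, and of the wider list genes with an unadjusted p under 0.05 or the 3 smallest p in each direction; others were chosen after their values were seen. Other settings were a replicate block, leaving out each array or dim genes, repeated quantile normalisation, centring, cyclic loess, averaging probe sets, trend and robust variance, and array weights. The other Prdx1 probe set and the median without Gpx3 were added after seeing the data.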

Additional observations from a re-analysis of the deposited data

How the results depend on the processing

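With each array left out, the count of genes past the adjusted threshold ran from 0 to 434, that past the unadjusted threshold from 1198 to 5390, that of members from 1 to 4 and that of the wider list from 10 to 23. The median difference of the members ran from 0.15 to 0.88 and that of the wider list from 0.17 to 0.75. With the replicate number as a block, 1775 genes and 1 member passed the unadjusted threshold; the block fits Flattop-positive replicate 3 exactly and so leaves it out. Deviations from the group means correlated across genes at r = 0.18 for the arrays numbered 1 and at r = -0.14 for those numbered 2. The deviations of the 2 Flattop-negative arrays mirror each other, so these values cannot decide on a pairing, and none was assumed. Unadjusted calls over all genes were 1632 with dim genes left out, 1706 on repeated quantile normalisation, 1649 after cyclic loess and 1662 with array weights. In each of these, with trend and robust variance, and with the other Prdx1 probe set, 1 member was called. After cyclic loess the median of the members was -0.016 and that of the wider list 0.29. Directions turned for members with small differences or divergent Flattop-negative pools. Nfe2l2 had -0.034 with the block and without Flattop-positive replicate 3, -0.29 on repeated quantile normalisation, -0.41 after cyclic loess and -0.0022 with array weights; leaving out each array gave -0.034 to 0.052. Gclc had -0.040 without Flattop-negative replicate 2 (up to 0.19 with others left out), -0.17 on quantile normalisation and -0.19 after loess, and Txnrd1 -0.085 without Flattop-negative replicate 1 (up to 0.55 with others left out), -0.055 and -0.090. Gpx3 had -0.016 after loess and -2.06 to 2.91 with each array left out, and Cat -0.80 to 0.22, above 0 without Flattop-negative replicate 2 alone. Sod1, Sod2, Prdx1 and Prdx3 kept their direction in all 13 other settings fixed at the outset, and no member passed the adjusted threshold in any. The causes of these shifts were not tested.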
